A study of Drosophila melanogaster with 2 samples.

Results

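Heterotrimeric G protein genes and Cirl, a gene for an adhesion-class G protein-coupled receptor, were examined for binding of the Drosophila melanogaster protein CG32767. The family examined held 10 of the 18164 annotated genes, and of the 13945 protein-coding genes, on the 6 chromosome arms of the dm6 genome. They were the receptor gene Cirl, the gamma subunit genes Ggamma1 and Ggamma30A, the beta subunit genes Gbeta13F and Gbeta76C, and the alpha subunit genes Galphao, Galphai, Galphaq, Galphas and cta. The genes were chosen by family after the peak lists had been seen, because the promoters of Cirl and Ggamma1 carried 2 of the strongest peaks of the study. The signals of those 2 peaks are therefore given as a description, and no member was put to a test.

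Chromatin immunoprecipitation and sequencing was carried out on whole embryos collected between 0 and 24 hours of development. The strain, CG32767-GFP, expressed a fusion of CG32767 with enhanced green fluorescent protein, and GFP was the target of the antibody. Both samples, biological replicates 1 and 2 with 1 library each, came from the fusion strain and formed 1 group. No untagged or input sample was analysed here, so no contrast between conditions was possible. Whole embryos of this age range mix all cell types and stages, so a peak carries no information on the cells in which it was formed. Signal is the authors' value for a peak, in the units of their peak caller. Peaks were ranked within 1 list at a time, signals of the replicates are set side by side only as descriptions, and sequencing depth cannot be read from the lists.

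Heterotrimeric G proteins carry signals from cell-surface receptors into the cell. An active receptor makes the alpha subunit exchange GDP for GTP, the alpha subunit parts from the beta-gamma dimer, and both pieces act on enzymes and channels. In Drosophila embryos these proteins are known for roles in gastrulation, in the asymmetric division of neuroblasts and in the heart, and later in vision. Cirl is the fly latrophilin, which in larval sensory neurons tunes the response to mechanical stimuli.

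Of the 10 genes, 6 had a summit of the conservative list no more than 500 bp from one of their transcription start sites (TSSs), against 14.1% of all protein-coding genes under the same rule. The conservative list, made by the authors from both replicates, held 3533 peaks, and a summit is the position of the highest signal in a peak. A longer list from both replicates held 4636 peaks, and each replicate had a list of its own. The 6 genes were Cirl (1137), Ggamma1 (972.7), Galphas (227.5), Gbeta13F (180.6), Galphao (131.4) and Galphaq (95.1), where each number is the signal of the strongest such peak. Among the 1965 genes with a promoter summit, Cirl ranked 4, Ggamma1 8, Galphas 372, Gbeta13F 565, Galphao 915 and Galphaq 1363. The median over these genes was 123.9, with quartiles of 88.4 and 197.5. The promoter signals of the family thus ran from near the top of the series to between its lower quartile and its median, and the 4 other genes, Ggamma30A, Gbeta76C, Galphai and cta, had no promoter summit.

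In windows made of each gene span with 5 kb on either side, 7 of the 10 genes held a conservative summit, against 39% of all protein-coding genes. Longer genes have larger windows, and the windows here ran from 12356 bp at Gbeta76C to 55932 bp at Ggamma30A. The 10 windows covered 229224 bp and held 15 conservative summits, or 65.4 per Mb, and the 6 arms held 26.4 per Mb. The summits of Cirl and Ggamma1, for which the family was chosen, are among the 15, so nothing is read from this difference. Of the 15 summits, 7 lay within 500 bp of a TSS of the member itself, 4 lay within 500 bp of the TSS of a neighbouring gene alone, and 4 lay near neither. The farthest summit inside the 5 kb limit was 4807 bp past the end of Gbeta13F, with a signal of 61.7. The nearest one outside it was 6075 bp from the span of Galphas, with a signal of 141.

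**Figure D1:**
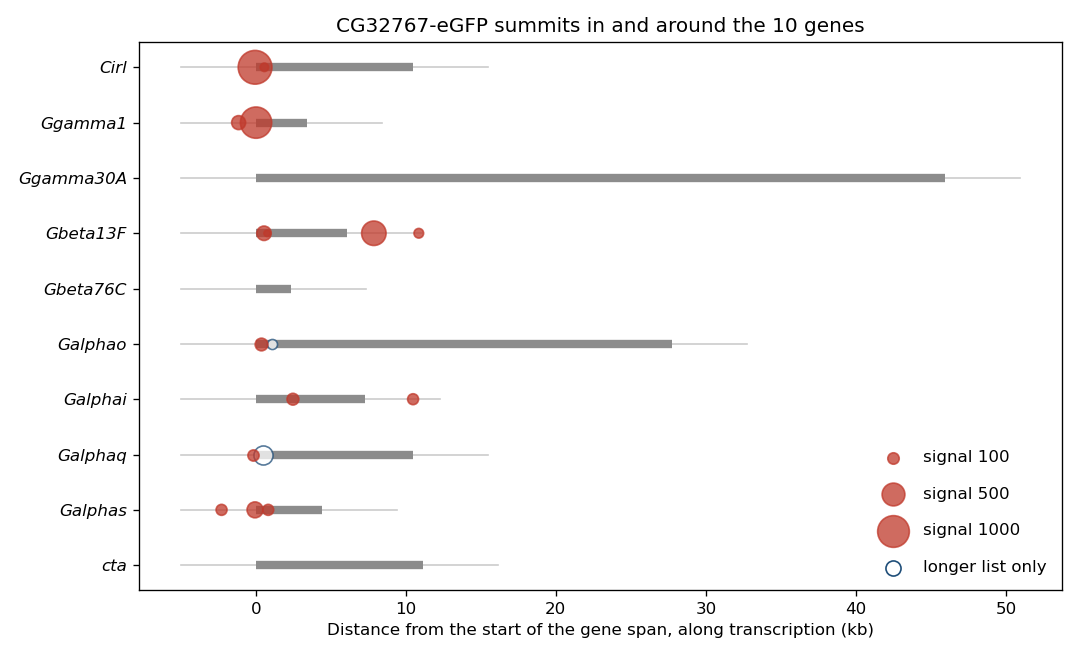
Positions of CG32767-eGFP summits along each of the 10 genes, drawn from the start of the gene span in the direction of transcription, in kb. Thick bars are gene spans, thin lines the 5 kb flanks, and the area of a circle grows with peak signal; filled circles are conservative peaks, open circles peaks of the longer list alone. The 2 largest circles sit at the starts of Cirl and Ggamma1, and Ggamma30A, Gbeta76C and cta have none.

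The Cirl promoter held the strongest peak in the group. Cirl (FBgn0033313) lies on 2R from 8614722 to 8625203, plus strand, with 8 annotated transcripts from 2 TSSs. The peak ran from 8614483 to 8614934, its signal of 1137 ranked 5 of the 3533, and its summit lay 43 bp upstream of the first TSS, from which 5 transcripts start. Its signal was 489.9 in replicate 1, where it ranked 19 of 2887 peaks, and 668.0 in replicate 2, where it ranked 2 of 2624. The summits in the replicates were 11 bp apart. The nearest other TSS, of CG8642, was 524 bp away, and the second Cirl TSS, from which 3 transcripts start, lay 1491 bp downstream of the summit and had no summit within 500 bp. A second conservative peak of low signal, 39.5, had its summit in an intron, 577 bp downstream of the first TSS, with 34.7 in replicate 1 and 49.2 in replicate 2. It was in neither single-replicate list and not in the longer list.

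Ggamma1 was the other gene with a peak of this strength. Its product is a gamma subunit that takes part in neuroblast division and in the adhesion of heart cells. The gene (FBgn0004921, 2R, 8901404 to 8904791, plus strand) has 2 TSSs that lie close together, and the summit of its peak (8901153 to 8901676, signal 972.7) fell between them, 22 bp downstream of the first and 7 bp upstream of the second. The signal was 416.4 in replicate 1, rank 32 of 2887, and 552.7 in replicate 2, rank 3 of 2624, with summits 9 bp apart. The same summit lay 51 bp upstream of the TSS of MrgBP, which is transcribed the other way, so the promoter is shared and the peak cannot be assigned to 1 gene. In replicate 2 an additional peak of 100.9 overlapped it, 181 bp downstream of the second Ggamma1 TSS. A weaker peak (166.8, with 67.5 in replicate 1 and 101.6 in replicate 2) lay 1139 bp upstream of Ggamma1, at the TSSs of CG13751 and ana2, 24 and 54 bp away. The list of replicate 2 also held a peak of 35.2 past the end of Ggamma1, 108 bp downstream of the TSS of CCT8.

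The other gamma subunit gene had no thresholded peak in any of the 4 lists. Ggamma30A (FBgn0267252, 2L, 9256563 to 9302494, plus strand) encodes a gamma subunit used in photoreceptors and has 3 TSSs. Besides the thresholded lists there are 4 ranked lists, which hold weaker candidates too, each with an irreproducible discovery rate (IDR). This rate is low where a peak ranks consistently high in the sets of peaks compared, and thresholded peaks have one of at most 0.01. In the ranked list that matches the conservative peaks, the Ggamma30A window held 58 candidates. The strongest Ggamma30A candidate had a signal of 54.2, higher than that of 95.1% of candidates in that list, and an IDR of 0.0417, and it lay in a non-coding exon 5436 bp downstream of the nearest TSS. Within 500 bp of a TSS the highest candidate reached 22.2 in replicate 1 and 18.0 in replicate 2, with IDRs of 0.732 and 0.449.

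The beta subunit genes differed in the same way. Gbeta13F (FBgn0001105, X, 15860115 to 15866175, plus strand), the broadly used beta subunit of embryonic development, held 4 conservative summits in its window, and Gbeta76C (FBgn0004623, 3L, 19687637 to 19689992, plus strand), the beta subunit of the eye, held none. The promoter peak of Gbeta13F (15860598 to 15860754, signal 180.6) had 119.6 in replicate 1 and 69.4 in replicate 2, with summits 58 bp apart. Its summit lay 38 bp upstream of the second TSS, where 1 of 6 transcripts starts, and 553 bp downstream of the first TSS, where the other 5 start. No conservative summit came within 500 bp of that first TSS. A further conservative peak of 8.60 overlapped it, 169 bp downstream of the second TSS. The strongest peak in the window was not at the gene: it lay 1812 bp past its end and 158 bp upstream of a TSS of Gapdh2, a glycolytic enzyme gene (15867849 to 15868122, signal 581.5). Its replicate values were 298.2 and 281.7. The last of the 4, with a signal of 61.7, lay in an intron of CG16952, 4807 bp past the end of Gbeta13F. At Gbeta76C the highest candidate within 500 bp of the TSS had a signal of 23.7 in replicate 1 and 16.3 in replicate 2, with IDRs of 0.721 and 0.846. An IDR of at most 0.05 was found for 2 Gbeta76C candidates in the ranked list that matches the longer list, and for 0 in the one that matches the conservative list.

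Sequence under these beta subunit sites is printed below to set the bound start of Gbeta13F beside the strong peak downstream of it and beside the start of Gbeta76C. Each run covers 100 bases on either side of the summit or TSS in the RefSeq dm6 assembly, 5′ to 3′ on the strand of the member, and capitals mark every match, on either strand, to 10 short words listed further on.
Gbeta13F summit upstream of the internal start site (chrX:15860568-15860768, plus strand): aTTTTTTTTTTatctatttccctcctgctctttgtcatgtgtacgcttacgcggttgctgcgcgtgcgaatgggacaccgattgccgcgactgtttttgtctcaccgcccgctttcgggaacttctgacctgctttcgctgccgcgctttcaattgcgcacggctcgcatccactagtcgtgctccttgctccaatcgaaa
Peak between Gbeta13F and Gapdh2 (chrX:15867887-15868087, plus strand): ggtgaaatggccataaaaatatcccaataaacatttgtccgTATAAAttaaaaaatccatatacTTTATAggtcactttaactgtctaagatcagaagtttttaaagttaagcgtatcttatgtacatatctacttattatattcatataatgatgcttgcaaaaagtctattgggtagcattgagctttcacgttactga
Gbeta76C start site, with no thresholded peak (chr3L:19687537-19687737, plus strand): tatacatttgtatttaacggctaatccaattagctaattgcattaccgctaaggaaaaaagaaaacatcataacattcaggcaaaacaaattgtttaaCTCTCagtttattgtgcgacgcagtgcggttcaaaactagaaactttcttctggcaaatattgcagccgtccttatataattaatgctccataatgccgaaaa
The Gbeta13F summit was poor in A and T, with 48.8% in the window of 150 bases on either side, lower than all but 7.39% of the conservative summits, and its single match was a run of A or T. The Gapdh2-side peak had 65.1% A and T and 2 matches to the TATA word in the stretch shown. The Gbeta76C start had 64.1%.

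The 5 alpha subunit genes ranged from a clear promoter peak to no candidate at all. Galphas, whose product stimulates adenylyl cyclase, had the strongest promoter peak of the 5 in the conservative list (FBgn0001123, 2R, 23942538 to 23946936, plus strand). Its peak (23942296 to 23942685, signal 227.5) had its summit 47 bp upstream of the first TSS, where 4 of the 5 transcripts start, with 127.1 in replicate 1 and 108.3 in replicate 2. A second peak (90.2, with 33.6 and 64.6 in replicates 1 and 2) lay in an intron 607 bp upstream of the second TSS, and of the single-replicate lists only that of replicate 2 held it. Another (89.7, with 61.7 and 29.4, and in both single-replicate lists but not in the longer list) lay 2276 bp upstream of Galphas and 148 bp upstream of the TSS of Taldo, which encodes transaldolase.

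Galphao, the alpha subunit best known from the nervous system, has 8 TSSs, and binding was seen at the cluster of the first 4 (FBgn0001122, 2R, 10437985 to 10465701, plus strand). The conservative peak (10438155 to 10438544, signal 131.4) had its summit 365 and 102 bp downstream of TSSs 1 and 2 and 121 and 256 bp upstream of TSSs 3 and 4. Its replicates stood far apart, with 44.0 in replicate 1, at an IDR of 0.791, and 93.2 in replicate 2, at an IDR of 9.45e-05. In replicate 1 the strongest Galphao peak was another one, of 62.2, whose summit lay 271 bp upstream of TSS 5, and this site had 16.5 in replicate 2. It was in the longer list with a signal of 69.3 and not in the conservative list. The thresholded promoter peaks of the 2 replicates at Galphao thus lay at separate positions. At the conservative site the candidate of replicate 1, though not thresholded, was higher than 96.9% of its candidates. Its summit was 80 bp from that of replicate 2.

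At Galphaq the strongest peak had a candidate in replicate 2 alone. Galphaq (FBgn0004435, 2R, 12612740 to 12623197, plus strand) encodes the alpha subunit that couples rhodopsin to phospholipase C in photoreceptors. Its conservative peak (12612342 to 12612731, signal 95.1) lay 203 bp upstream of the first TSS, which CG45086 shares, with 62.6 in replicate 1 and 48.1 in replicate 2. The longer list held in addition a peak of 338.6 (12613068 to 12613309), with its summit in an intron 479 bp downstream of the same TSS. By the 500 bp rule this was a promoter summit of the longer list, in which the strongest one of Galphas had 227.5. Replicate 2 gave it a signal of 178.5, higher than 99.8% of its candidates, and no candidate of replicate 1, at any signal, overlapped it. The signals of 338.6 and 178.5 come from lists whose scales need not be equal. A missing candidate alone does not show that replicate 1 had no signal there, and this was not tested. Of the 246 peaks of the longer list with a signal of at least 300, this was the 1 peak that no replicate 1 candidate overlapped and the 1 peak missing from the conservative list. Every one of the 246 was overlapped by a candidate of replicate 2. The Galphaq window was sparse in candidates, with 5 in replicate 1 and 6 in replicate 2. In replicate 1 that is 2.44 per 10 kb, against a median of 7.81 over protein-coding genes, of which 6.88% were lower. In replicate 2 it is 2.93 per 10 kb. The bound of 300 was set after the value was seen.

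The 2 remaining alpha subunit genes had no promoter summit. Galphai (FBgn0001104, 3L, 6972750 to 6980044, minus strand), whose product works with Pins in the asymmetric division of neuroblasts, had an intronic peak (6977370 to 6977759, signal 109.6) 2479 bp downstream of its single TSS. It had 69.6 in replicate 1 and 39.6 in replicate 2, and only the list of replicate 1 held it. The summit also lay inside the overlapping gene lncRNA:CR32385, 1243 bp from the TSS of that gene. Within 500 bp of the Galphai TSS the highest candidate reached 28.2 and 20.3 in replicates 1 and 2, with IDRs of 0.170 and 0.669. In the ranked list that matches the conservative peaks, the highest there had 51.1, above 94.5% of candidates, at an IDR of 0.0653. Its IDR was 0.302 in the ranked list that matches the longer list. A second conservative peak (89.2, with 47.9 and 34.3) lay 3191 bp past the end of Galphai and 99 bp upstream of the TSS of CG9953.

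The intronic Galphai site is printed because it was the only conservative peak of the group that lay in a member over 2 kb from a TSS of that member. It is given 5′ to 3′ on the strand of the gene, with capitals as before.
Galphai intronic summit (chr3L:6977465-6977665, minus strand): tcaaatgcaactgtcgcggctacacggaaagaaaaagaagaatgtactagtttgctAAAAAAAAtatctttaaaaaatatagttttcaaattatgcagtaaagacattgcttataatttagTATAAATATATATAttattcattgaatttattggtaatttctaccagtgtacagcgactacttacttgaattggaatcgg
The window of 150 bases on either side of this summit was 65.8% A and T, against a median of 61.1% over conservative summits, and the capitals here mark a run of A and a stretch in which the TATA word and a TA repeat run together.

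The gene cta, or concertina, encodes the alpha subunit through which the secreted protein Fog drives cell shape change at gastrulation. Its window (span 22981816 to 22992951 on 2L, plus strand, FBgn0000384) held 0 candidates in each of the 4 ranked lists, as did 1.55% of protein-coding genes. Of those 216 genes, 118 were among the 2657 protein-coding genes of 2L and 9 among the 80 of chromosome 4. The arms 2R, 3L, 3R and X had between 18 and 33 each. The span ends 520761 bp before the end of the assembled arm, and the nearest candidates to it were 7438 bp away in replicate 1 and 71896 bp away in replicate 2. All 21136 bases of the window are sequenced in the assembly. Of the 37 protein-coding genes within 1 Mb, cta itself included, 5 held no candidate in any list, cta among them. The arm ends within that distance. The lists hold no read depth, so whether binding at cta could have been detected was not tested.

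**Figure D2:**
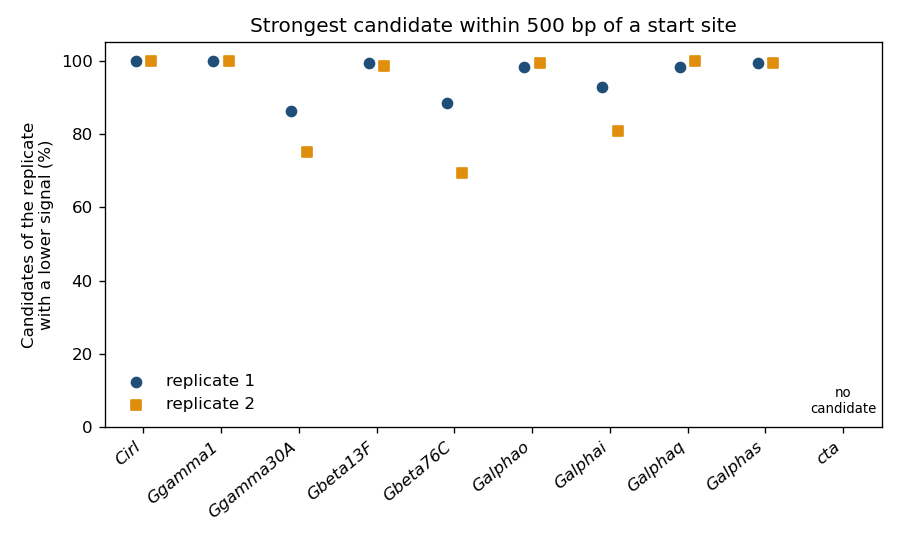
For each gene, the strongest candidate within 500 bp of any of its start sites in the ranked list of each replicate, given on the vertical axis as the percentage of all candidates of that replicate with a lower signal. The 6 genes with a conservative promoter summit lie above 98% in both replicates; Ggamma30A, Gbeta76C and Galphai lie between 69.3% and 92.8%, and cta has no candidate.

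The replicates were compared at the 15 conservative peaks. Replicate 1 had the higher signal at 8 of them and replicate 2 at 7, while replicate 1 was higher at 63.2% of all conservative peaks with a value in both. Both single-replicate lists held 9 of the 15, against 45.8% of all conservative peaks, and neither list held 2, against 19.6%. The 2 overlapping peaks at the Gbeta13F promoter take the same replicate candidates. Counted once, they leave a split of 7 to 7 and 8 of 14 peaks in both single-replicate lists. Over the 3490 conservative peaks with a candidate in both replicates, the log2 ratio of replicate 1 to replicate 2 had a median of 0.22, with quartiles of -0.22 and 0.62. Cirl and Ggamma1 stood below that range, at -0.45 and -0.41. Among the 100 strongest of these peaks the median was 0.58, and replicate 2 was the higher in 11 of them, which include the peaks of Cirl and Ggamma1. Galphao had the lowest ratio of the group, -1.08, under that of all but 2.87% of peaks. The highest was 1.07, at the peak upstream of Taldo. Galphas, at 0.23, lay next to the median of 0.22 over all these conservative peaks. Gbeta13F at its promoter, at 0.78, lay above the upper quartile of 0.62. The scales of the lists need not be equal and each replicate is 1 library, so these ratios describe the libraries and carry no test.

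**Figure D3:**
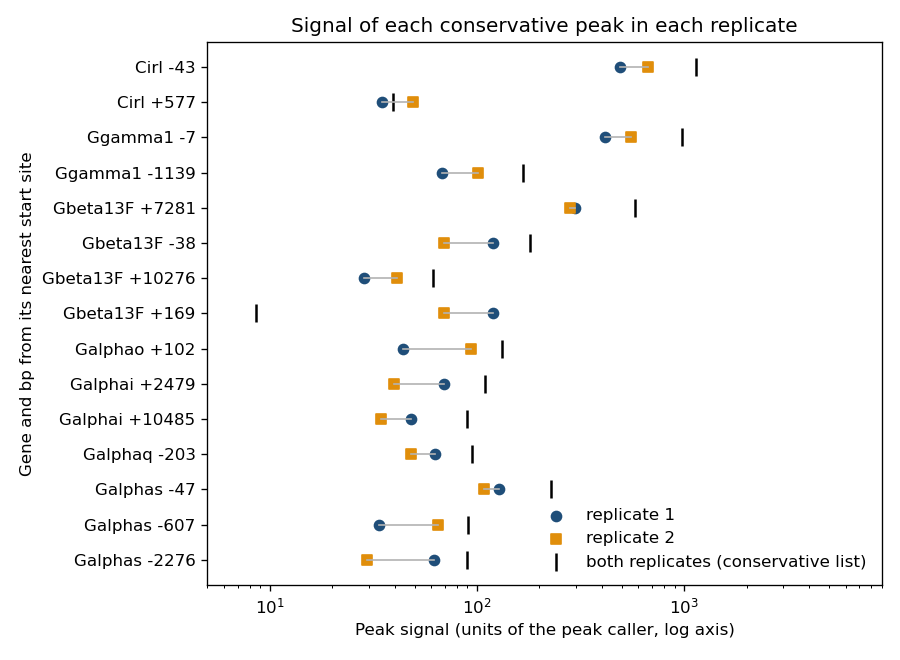
Signal of each of the 15 conservative peaks in replicate 1 (circles) and replicate 2 (squares) on a log axis, with the signal in the conservative list as a vertical tick; rows give the gene and the distance of the summit from its nearest start site in bp. The Cirl and Ggamma1 promoter peaks lie highest in both replicates, with replicate 2 above replicate 1. For the peak of 8.60 at Gbeta13F the replicate values are those of the stronger overlapping candidate.

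**Figure D4:**
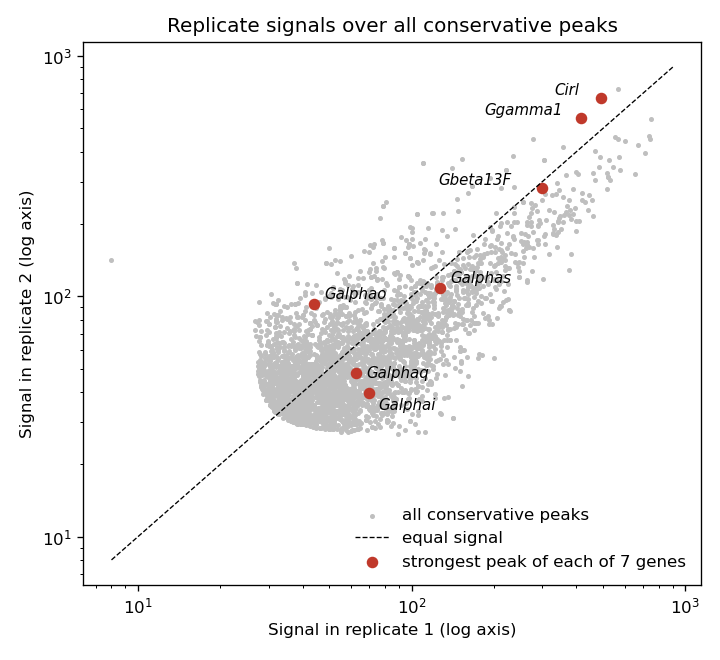
Signals in replicate 1 and replicate 2 of the 3490 conservative peaks with a candidate in both, on log axes, with the strongest peak in the window of each of 7 genes in red and a dashed line of equal signal. Cirl, Ggamma1 and Galphao lie above the line, where replicate 2 is higher, while most of the strongest peaks lie below it. The point of Gbeta13F is the peak near Gapdh2.

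Calls at the promoters were then compared between lists. In the longer list 6 of the 10 genes had a promoter summit, against 17.4% of protein-coding genes. In the list of replicate 1 the count was 6, against 12.1%, and in that of replicate 2 it was 6, against 10.6%. The same 6 genes had one in both, against 7.64%, although at Galphao the 2 replicates did so at separate sites. Since the family was assembled around genes with strong peaks, these counts are read as a description alone.

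Of the 25 distinct TSSs of the 10 genes, 10 had a conservative summit within 500 bp, against 12.8% of all protein-coding TSSs. These 10 share few peaks, since 4 of them are Galphao TSSs near 1 summit and 2 are Ggamma1 TSSs near 1 summit. At Cirl, Galphas and Galphaq the summit lay upstream of the first TSS, in sequence between genes, and the later TSSs of these genes had none. At Gbeta13F it lay upstream of the internal TSS instead. The 10 words were searched within 150 bases of each summit, on both strands. They were the DNA replication-related element, spelled TATCGATA, and the core of the motif bound by the factor M1BP, spelled GGTCACAC. For the factor known from GAGA repeats the word was GAGAG, and for the E-box it was CAGCTG. For Zelda, an activator of the early embryonic genome, it was CAGGTA. The word CGATA is contained in the first word and was also counted alone. The TATA box was searched as TATAAA. The last words were repeats, with AAAAAAA for a run of A, then TATATATA for a TA repeat, then CACACACA for a CA repeat. The TATA word was found at 9 of the 15 summits, against 39.3% of all conservative summits and 37.1% of protein-coding TSSs. Of the 7 summits within 500 bp of a TSS of the member itself, only those of Galphao, Galphaq and Galphas held it. GAGAG was found at 4 of the 15, against 39.8% and 33.6%. CGATA was found at 8, against 35.7% and 46.0%. The DNA replication-related element occurred at 2, at the Galphas promoter and at the peak shared by CG13751 and ana2 near Ggamma1, against 4.47% and 7.09%. The M1BP core and the Zelda motif occurred at 0 of 15, against 3.23% and 6.51% of all conservative summits. The Cirl summit held the GAGA word and CGATA, and that of Ggamma1 held CGATA, a run of A and a CA repeat, so the 2 strongest sites had 1 of the 10 words in common. The Galphao summit, at 46.8%, and the Gbeta13F promoter summit, at 48.8%, were the poorest in A and T of the 15.

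The genes whose promoter peak was most like that of a member were found by distance over the log2 signals of the 2 replicates, among 1934 genes at most. For Cirl the nearest was vig (568.0 in replicate 1 and 726.0 in replicate 2), and the next was MrgBP, whose peak is that of Ggamma1. For Ggamma1 they were Nsf2 (358.6 and 420.2) and PNPase (566.9 and 449.5). For Gbeta13F they were 140up and Polr2B, which share 1 peak, and for Galphao lola and beta-Spec. Galphaq was nearest to CG15111 and CG15118, which also share a peak, and Galphas to CG4586 and Drat. With 2 samples, likeness here means similar signal and no more.

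Other genes of G protein signalling were examined by role. The list of 110 genes was put together from known roles, with earlier results of these data known. A promoter summit of the conservative list was found at 12 of them (10.9%), while the share over protein-coding genes was 14.1%. The median signal of the 12 was 161.6. Of 20 effector genes 5 had one, of 10 regulators 2 and of 4 ligands 1. Of 74 receptor genes 3 had one, and none of the 18 amine receptor, 33 peptide receptor and 7 opsin genes did. In the longer list 6 of the 74 had one, against 17.4% of protein-coding genes. Of these 6 genes 1 was an amine receptor gene, and the peptide receptor and opsin genes again had none.

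The strongest were dnc, a cyclic AMP phosphodiesterase gene (297.2, with 154.2 in replicate 1 and 144.6 in replicate 2), and moody, a receptor gene of the glial blood-brain barrier (285.4, with 170.4 and 121.1). krz, the fly beta-arrestin, followed with 231.8, at a promoter shared with mod, and with 73.0 in replicate 1 against 165.2 in replicate 2. The adenylyl cyclase genes Ac13E and Ac78C had 202.4 and 143.0. Pka-R2, a regulatory subunit of protein kinase A, had 193.0, and the receptor genes Dh31-R and mthl1 had 180.2 and 138.9, the latter at a summit shared with SNRPG. mthl1 encodes the receptor for Fog, known as Mist. Of the last 2 subunit genes, Gbeta5 had a promoter summit of 124.7 (39.9 in replicate 1 and 83.3 in replicate 2) and Galphaf had none. The promoter signals of Cirl and Ggamma1, for which the family was chosen, were not compared with these values.

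**Figure D5:**
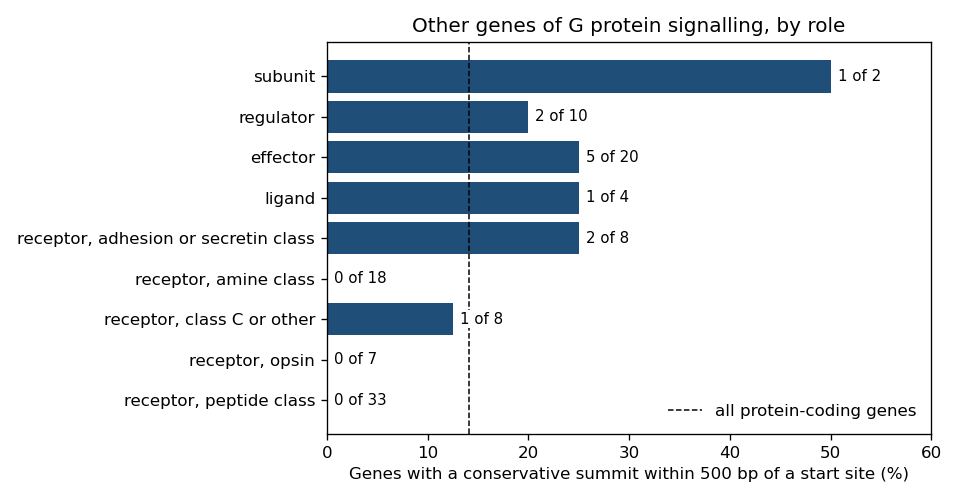
Percentage of the other G protein signalling genes, by role, that had a conservative summit within 500 bp of a start site, with the counts beside the bars; the dashed line is the 14.1% of all protein-coding genes. Summits were found at subunit, regulator, effector and ligand genes and at 3 receptor genes, and at none of the amine receptor, opsin or peptide receptor genes.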

How the data were processed

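Chromatin immunoprecipitation was measured in 2 replicates of embryos that express CG32767-eGFP. The authors deposited 8 peak lists on dm6, 4 thresholded and 4 ranked, for each replicate and in 2 versions for both. The signal of each peak is as deposited by the authors, in the units of their peak caller. The score in the deposited lists is a scaled IDR, at least 830 in thresholded lists. The −log10 of the global IDR, from the deposited ranked lists, was used with its upper limit as given, so the smallest IDR is 1e-05. The aligner, peak caller and control were not given in the sources used here. Such lists hold no read counts, so depth is unknown.

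The tools were scipy 1.17.1, numpy 2.4.6, pandas 2.3.3 and matplotlib 3.10.9 under Python 3.11.15. Gene models were those of Ensembl (BDGP6.54), and bases were read from the dm6 assembly of RefSeq. Positions are 1-based. Members were matched by symbol, all 10 of them. The value of a peak in a replicate is the strongest candidate of that replicate's ranked list overlapping it by at least 1 bp. The list behind the conservative one was taken as the ranked list whose scores matched all 3533 conservative peaks. Gene counts and replicate look-up were tested on simulated data. Members, gene lists and motifs were chosen with earlier results of these data known. The text names all members, the other subunit genes, the 8 pathway genes with the strongest promoter peaks, and 2 genes most like each bound member. The other observations name genes picked once their values were known.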

Additional observations from a re-analysis of the deposited data

How the results depend on the processing

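The count of 6 genes with a promoter summit stayed between 5 and 6 under 7 alternatives, and that of 7 genes with a summit in the window between 5 and 7. Among the alternatives, a matching share over protein-coding genes was computed only for the promoter count with the longer list and each replicate's list. These counts are therefore not read as a property of the members. The number of summits in the windows, 15, was 8 with the upper 50% of the conservative list by signal, 9 with peaks found in both single-replicate lists, and 7 with no flank. Without replicate 1 it was 14 and without replicate 2 it was 10. The pathway count of 12 of 110 genes was 7 with peaks found in both single-replicate lists and 18 with the longer list. It was 9 without replicate 1 and 11 without replicate 2. The share over protein-coding genes moved with the list too, from 14.1% to 17.4% with the longer list. That share was 10.6% without replicate 1 and 12.1% without replicate 2. These changes in the pathway count are therefore not read as a property of the pathway. For the pathway count of 7 no matching share was computed. The replicate ratios at the strongest peak of each of 7 genes kept their values when summits within 100 bp or an overlap of at least 50% was asked for. With percentile ranks in place of signals they came near 0, as ranks near 100 must, with 0.037 for Galphai and -0.034 for Galphao. Gbeta13F changed sign with ranks, from 0.08 to -0.00059. No paired analysis was possible because there is 1 group. With 2 libraries of unknown depth, a missing peak, as at Ggamma30A or Gbeta76C, shows that none was detected and not that binding is absent.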

Other observations

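Some pathway genes without a promoter summit had a strong summit elsewhere in the gene span or the 5 kb around it. At norpA, which encodes the phospholipase C of phototransduction, a peak of 420.3 lay in an intron, 1375 bp downstream of a TSS of the gene, with 303.0 in replicate 1 and 118.6 in replicate 2. At Tre1, a receptor gene needed for germ cell migration, a peak of 147.7 lay in an intron, 1108 bp upstream of an internal TSS, with 68.3 and 75.9. Other such peaks lay outside the gene span, nearest to a neighbouring gene. The peak of 1013 near Gprk2, a kinase gene for activated receptors, was 76 bp downstream of the TSS of PNPase. The peak of 352.2 near Lgr3 was 87 bp upstream of the TSS of Idh3g, and that of 321.8 near Galphaf was in an intron, 1003 bp downstream of a TSS of Baldspot.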
